A study of Saccharomyces cerevisiae with 5 samples.

Results

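The heat shock proteins outside the HSP70 family were examined as 10 genes of budding yeast, *Saccharomyces cerevisiae*, chosen by their gene names on the array. They are the HSP90 pair HSC82 and HSP82, the HSP100 ATPases HSP104 and HSP78, the mitochondrial chaperonin HSP60 with its partner HSP10, the small heat shock proteins HSP42 and HSP26, and the membrane-associated stress proteins HSP12 and HSP30. All 10 were found among the 6256 genes measured, each with 1 probe printed as 7 spots. The 5 arrays form 1 group of 5 RNA samples from strain Sigma 1287b, L5366 (Sigma1278b L5366 in the study's methods), taken from cells in mid-log growth at 30 °C in a rich medium. On each array RNA labelled with Cy3 was hybridized together with genomic DNA of the same strain labelled with Cy5. The labels number the RNA samples without saying whether each came from a separate culture, so the spread between arrays may be technical. No heated or otherwise stressed sample was analysed here, so the values describe unstressed growth.

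Heat shock proteins are molecular chaperones and stress protectants that keep other proteins folded, pull them out of aggregates or hold them until they can refold. Some are made in bulk in every growing cell, whereas others are nearly silent until heat, ethanol or starvation activates the transcription factors Hsf1, Msn2 and Msn4. In yeast this division runs through single families, in which a constitutive gene and an inducible gene can encode nearly the same protein.

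Levels are given as log2 of RNA over genomic DNA signal after subtraction of the local background, quantile normalized between arrays, with the median gene set to 0. Each gene is thus set against its own genomic DNA signal at the same probe, which is the scale used here to compare different genes. Transcript length was not corrected for, and gene copy number only in so far as it enters the genomic DNA signal. Median intensity over genes lay between 1406 and 1997 for RNA and between 11288 and 12951 for genomic DNA. Arrays 4 and 5, scanned in a second session on 1 slide, had negative control spots at 74 and 81 in the RNA channel, against 40, 22 and 22 on arrays 1 to 3. Of the 350 spots of these 10 genes, 322 were well above background for RNA and all 350 for genomic DNA, none was saturated, and 7 with outlier flags were left out.

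In rank, though not in level, the 10 genes covered nearly the whole range of expression of the genome. HSC82 stood highest, at 4.31 ± 0.20 (SD, n = 5), which was 19.8-fold over the median gene and rank 185 of 6256. With Agilent's processed signals HSC82 was at -0.063 and under loess normalization at -0.34, below the median gene in both. HSP12 had the lowest mean, at -3.76 ± 0.36, 13.6-fold under the median gene and rank 5990, with HSP26 only 0.08 ± 0.20 above it. HSP12 RNA was not well above background on arrays 4 and 5, so this is no measured fold over 5 arrays. The genes split evenly: HSC82, HSP60, HSP10, HSP82 and HSP104 were above the median gene on all 5 arrays, as 47.2% of all genes were, and HSP78, HSP42, HSP30, HSP26 and HSP12 were below it on all 5, as 47.5% of all genes were. The number above it on every array was 4 with processed signals and 1 under loess. The median of the 10 mean levels was 0.00, against 0.00 over all genes, so the group as a whole did not sit to one side. What set the genes apart was the RNA signal. Mean log2 RNA signal spanned 9.65 between the brightest and the dimmest of them, whereas mean log2 genomic DNA signal spanned 1.67, with mean intensities from 9581 for HSP26 to 30286 for HSC82.

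**Figure D1:**
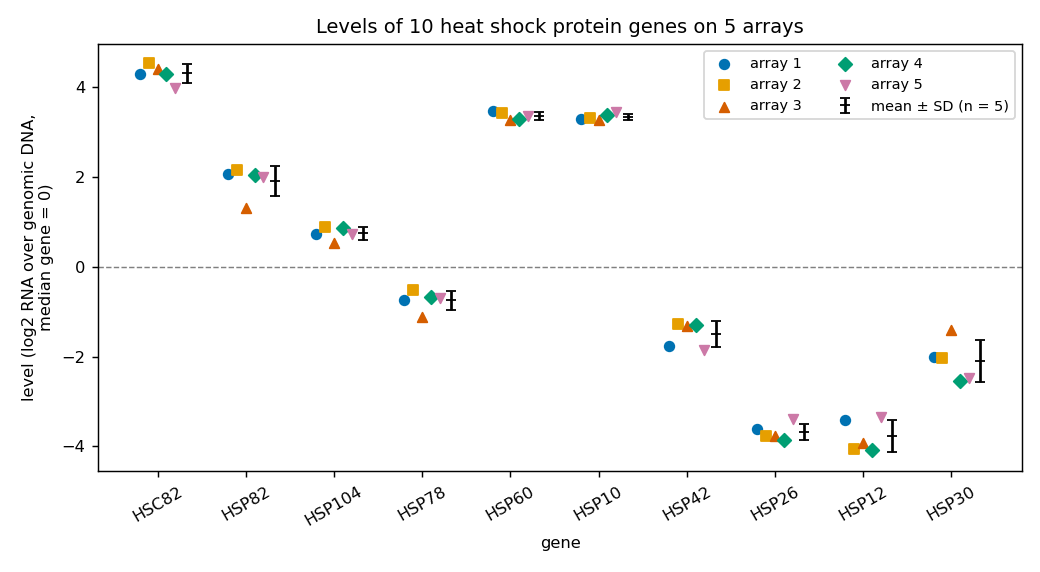
Level of each of the 10 genes on each of 5 arrays (log2 RNA over genomic DNA, median gene at 0, dashed line), with the mean and SD over arrays as bars. HSC82, HSP60 and HSP10 lie above 3 on every array, HSP26 and HSP12 lie below -3, and HSP82 on array 3 lies apart from its other 4 values.

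**Figure D2:**
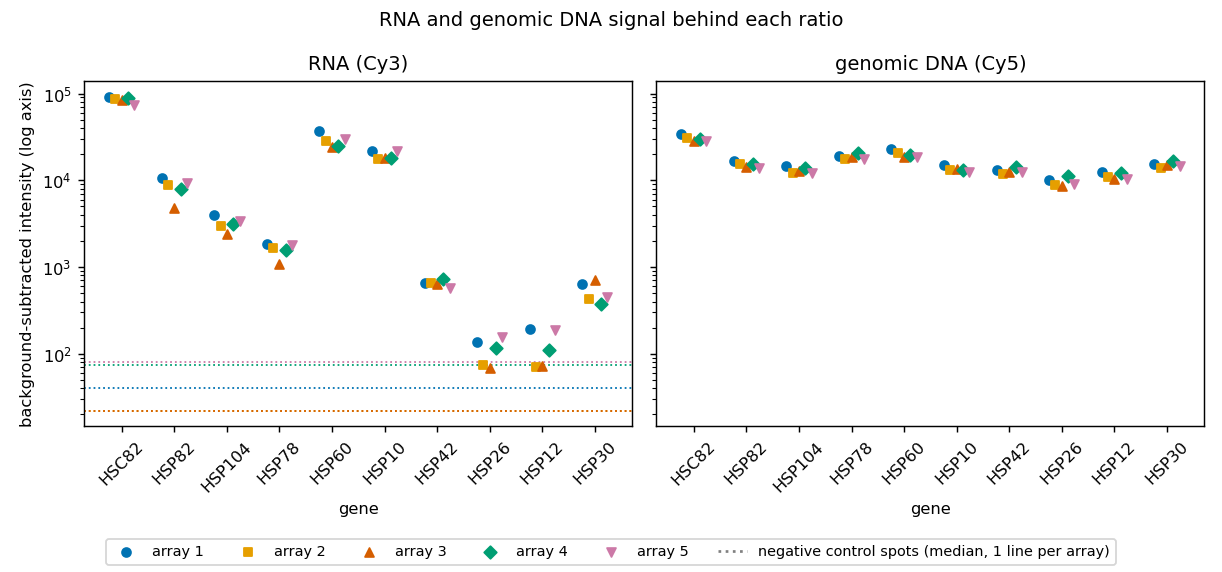
Background-subtracted intensity of RNA (left) and genomic DNA (right) for each gene on each array, on a log axis, with the median of the negative control spots of each array as dotted lines in the RNA panel. The RNA signal runs from 67.8 for HSP26 to 91813 for HSC82, and the genomic DNA signal stays within a far narrower band.

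HSC82 and HSP82 encode the cytosolic HSP90, the chaperone that matures kinases, transcription factors and other clients. HSC82 is known as the constitutive copy and HSP82 as the one induced by heat. HSC82 was at 4.30, 4.53, 4.41, 4.30 and 3.98 on arrays 1 to 5, and HSP82 at 2.06, 2.16, 1.32, 2.03 and 1.99. The values of the paralogs did not overlap, and HSP82 lay apart from its other values on array 3. HSC82 exceeded HSP82 by 2.39 ± 0.41 (SD, n = 5), a 5.25-fold difference, with the same direction on 5 of 5 arrays. The sign of each array's difference was flipped in every combination, and this exact permutation test, two-sided, gave p = 0.063 (0.075 after Benjamini-Hochberg adjustment over 6 pairs of genes), the smallest value that 5 arrays allow, so no pair could pass 0.05. Expressed as shares of their summed linear levels, HSC82 contributed 82.6%, 83.8%, 89.5%, 82.8% and 79.9% on arrays 1 to 5. The mean share of HSC82 was 83.7% ± 3.53, but it was 41.7% ± 1.89 with Agilent's processed signals and 43.2% ± 2.04 under loess normalization (both SD, n = 5).

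Both channels took part in this difference. The RNA signal of HSC82 exceeded that of HSP82 by 3.40 on the log2 scale and its genomic DNA signal by 1.02 ± 0.04, so that part of the RNA difference was divided out. The paralogs are nearly identical as proteins, and how far each probe also bound the other gene cannot be told apart here. HSC82 was among the brightest genes, with RNA intensities of 91813, 87355, 84147, 87877 and 74367. Its spots scattered more on arrays 2 and 3, which share a slide (SD between spots 0.41 on both), than on arrays 1, 4 and 5 (0.11, 0.12 and 0.21). The sign of the paralog difference turned with the processed signals (-0.48) and under loess (-0.40). Loess removes the trend of the ratio with brightness, which here includes expression. With the processed signals the levels of the whole group ran from -1.63 (HSP12) to 1.23 (HSP10). In the levels given above they ran from -3.76 (HSP12) to 4.31 (HSC82).

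HSP104 and HSP78 are ring-shaped HSP100 ATPases that thread proteins out of aggregates, HSP104 in the cytosol and HSP78 in the mitochondrial matrix. HSP104 was at 0.73, 0.89, 0.53, 0.86 and 0.73 on arrays 1 to 5, and HSP78 at -0.74, -0.52, -1.11, -0.68 and -0.69. Both genes were highest on array 2 and lowest on array 3. HSP104, at 0.75 ± 0.14, was 1.68-fold over the median gene, and HSP78, at -0.75 ± 0.22, was 1.68-fold under it. Because they moved together between arrays, their difference was steady, at 1.50 ± 0.10 (2.82-fold, same direction on 5 of 5 arrays, exact permutation p = 0.063, adjusted 0.075). HSP104 had the weaker genomic DNA signal of the pair, by 0.49 on the log2 scale, so the denominator widened the gap between them.

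HSP60 forms the barrel of the mitochondrial chaperonin, in which imported proteins fold, and HSP10 forms its lid. HSP60 was at 3.46, 3.41, 3.26, 3.28 and 3.36 on arrays 1 to 5, and HSP10 at 3.28, 3.31, 3.27, 3.38 and 3.44. The ranges overlapped. These were the least variable of the 10 genes, at 3.35 ± 0.08 (10.2-fold over the median gene) and 3.34 ± 0.07, ranks 325 and 330 of 6256. HSP60 minus HSP10 was 0.02 ± 0.12 and ran between -0.10 and 0.18, above 0 on arrays 1 and 2 and below 0 on arrays 3 to 5 (exact permutation p = 0.812, adjusted 0.812). The RNA signal of HSP60 was higher by 0.55 and its genomic DNA signal by 0.56 on the log2 scale, so the near equality of the levels rested on the genomic DNA denominator. It also rested on the setting: HSP60 minus HSP10 was -0.47 ± 0.08 with normexp background correction, -0.89 ± 0.10 with processed signals, -0.73 ± 0.10 under loess and 0.56 ± 0.14 on the RNA signal alone (SD, n = 5), each beyond its spread. Within the mitochondrial matrix HSP60 exceeded HSP78 by 4.10 ± 0.18, or 17.2-fold, on 5 of 5 arrays (exact permutation p = 0.063, adjusted 0.075). This difference kept its direction but narrowed to 1.35 with processed signals and to 1.07 under loess.

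HSP42 and HSP26 are small heat shock proteins, which bind unfolding proteins without using ATP. HSP42 is known to act in unstressed cells as well and to gather misfolded proteins at defined sites, whereas HSP26 assembles into shells that become active on heating. HSP42 was at -1.75, -1.27, -1.31, -1.29 and -1.86 on arrays 1 to 5, and HSP26 at -3.60, -3.77, -3.77, -3.86 and -3.39. HSP42 was lowest on arrays 1 and 5, and HSP26 was highest on array 5. HSP42 averaged -1.50 ± 0.28 and HSP26 -3.68 ± 0.18, a difference of 2.18 ± 0.46 with the same direction on 5 of 5 arrays (exact permutation p = 0.063, adjusted 0.075). HSP26 RNA was not well above background on arrays 4 and 5, so this is no measured fold over 5 arrays. On arrays 1 to 3 the difference was 1.85, 2.50 and 2.46. When these arrays were normalized without the others, the difference was 2.41 ± 0.38 (SD, n = 3). With 3 arrays an exact permutation test cannot go below p = 0.25, whatever the size of the difference. It was 3.01 with negative controls subtracted, 1.63 with normexp and 0.34 with processed signals, and loess turned its sign (-0.43).

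HSP12 encodes a very small hydrophilic protein that associates with membranes in stressed and starved cells. HSP30 encodes a plasma membrane protein that restrains the proton pump during stress. HSP12 was at -3.42, -4.07, -3.92, -4.08 and -3.34 on arrays 1 to 5, and HSP30 at -2.02, -2.04, -1.41, -2.55 and -2.48. HSP30 was thus the higher gene on every array, with its highest value on array 3, while HSP12 was highest on arrays 1 and 5. HSP12 minus HSP30 was -1.66 ± 0.63 with the same direction on 5 of 5 arrays (exact permutation p = 0.063, adjusted 0.075), and HSP12 RNA too was not well above background on arrays 4 and 5. The difference was -1.40, -2.03, -2.51, -1.53 and -0.86 on arrays 1 to 5. When arrays 1 to 3 were normalized without the others, the difference was -2.12 ± 0.60 (SD, n = 3), and with arrays 4 and 5 treated likewise -1.04. It was -2.40 with negative controls subtracted, -2.12 on the RNA signal alone, -1.01 with normexp and -0.32 with processed signals, and loess turned this sign too (0.52).

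**Figure D3:**
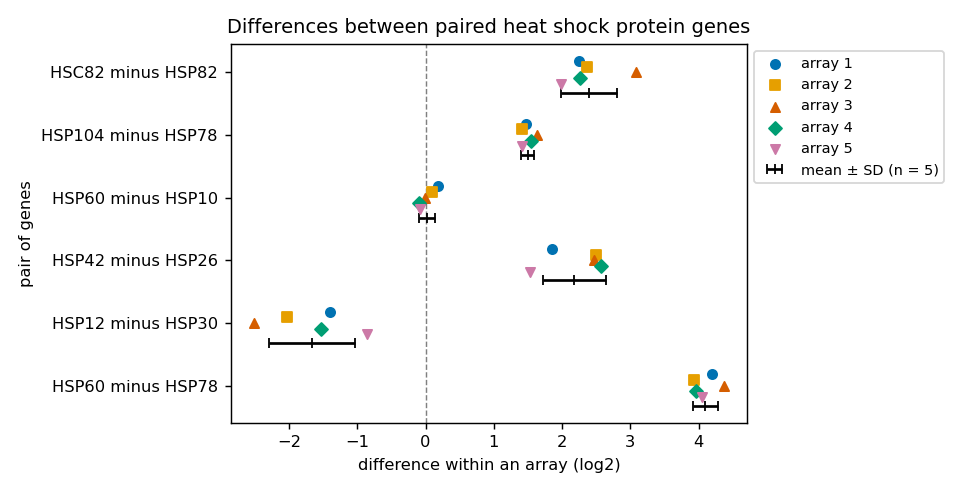
Within-array differences in level (log2) for 6 pairs of genes, 1 point per array, with the mean and SD over 5 arrays as bars. Only HSP60 minus HSP10 has points on both sides of 0, and array 3 gives the largest HSC82 minus HSP82, at 3.09.

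The RNA signals of HSP26 and HSP12 were close to background. HSP26 had RNA intensities of 135, 74.3, 67.8, 117.5 and 156.5 on arrays 1 to 5, which was 3.38, 3.38, 3.08, 1.59 and 1.93 times the median negative control of the same array. HSP12 had 191, 70.8, 72.9, 110 and 189, or 4.78, 3.22, 3.31, 1.48 and 2.33 times the negative controls. Both genes were well above background for RNA on arrays 1 to 3 and not on arrays 4 and 5, so their levels there are upper bounds rather than measurements. Array 5, with negative controls at 81, held the highest level of both genes (-3.39 and -3.34). Array 4, with controls at 74, held the lowest (-3.86 and -4.08). On array 1, with controls at 40, HSP12 was at -3.42. The cause of these values was not tested. With the negative controls subtracted as well, HSP26 ran between -5.06 and -4.27 and HSP12 between -5.42 and -3.92. HSP42 and HSP30 were well clear of the controls, at least 7.11 and 5.09 times their level on every array.

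In the order of mean levels (HSC82, HSP60, HSP10, HSP82, HSP104, HSP78, HSP42, HSP30, HSP26, HSP12), 7 of the 9 steps between neighbours were larger than their SD over arrays and had 1 direction on all arrays. HSP60 and HSP10, at 0.02 ± 0.12, did not differ beyond their spread in this setting, though they did in the others named above, nor did HSP26 and HSP12, at 0.08 ± 0.20. The smallest step that kept its direction was HSP42 over HSP30, at 0.60 ± 0.46, and it narrowed to 0.10 on array 3. The step of HSP30 over HSP26 includes arrays 4 and 5, where HSP26 RNA was not well above background. The order also depended on the setting. With processed signals HSC82 (-0.063) was below HSP60 (0.34) and HSP10 (1.23). Under loess HSP26 (-0.18) was above HSP30 (-1.06).

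The level of 9 of the 10 genes varied between arrays more than that of the median gene. The SD over arrays exceeded the 90th percentile of all genes (0.17) for 7 of the 10 genes, against 10% of all genes by definition. Set against the 500 genes nearest in level, the SD of HSP30 was larger than that of 99.8% of them, of HSP82 99%, of HSP42 97.6%, of HSP12 95.6%, of HSP78 95.4% and of HSP104 91.8%. HSC82 followed at 89.4%, HSP26 at 76.2%, HSP60 at 52.6% and HSP10 at 42.8%. Part of this spread rested on array 3. Normalized without it, the SD was 0.07 for HSP82, 0.09 for HSP78 and 0.08 for HSP104. It was still 0.23 for HSC82, 0.30 for HSP42 and 0.28 for HSP30. The SD of HSP26 and HSP12 includes arrays 4 and 5, where their RNA was not well above background. The variation lay in the RNA channel: after each array was centred on its median gene, the SD of the log2 signal was larger for RNA than for genomic DNA in 10 of 10 genes, as in 89.8% of all genes. It was 0.33 against 0.06 for HSP82 and 0.40 against 0.06 for HSP30, but 0.11 against 0.10 for HSP60 and 0.11 against 0.09 for HSP10. Over all genes the median SD was 0.11 for RNA and 0.06 for genomic DNA.

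Array 3 carried a pattern of its own, described here after its values were seen and without a test. Set against the mean of the other 4 arrays, HSP82 was lower there by 0.74, HSP78 by 0.45 and HSP104 by 0.27, while HSP30 was higher by 0.87. Array 3 shares its slide and scan session with array 2, on which HSP82, HSP78 and HSP104 were at their highest. Array 3 minus array 2 was -0.84 for HSP82, the second lowest difference of all 6256 genes, -0.58 for HSP78, the 9th lowest, and -0.36 for HSP104, the 48th lowest. HSP30, at 0.64, was the 16th highest. The 7 HSP82 spots ran from -1.93 to -1.40 on array 3 and from -0.94 to -0.63 on array 2 (log2 ratio before normalization), without overlap. Each of these 4 differences kept its sign in 10 of 10 processing settings that use all arrays, a comparison added after the data were seen, but all 4 shrank under loess, to -0.03 for HSP82, -0.18 for HSP78, -0.16 for HSP104 and 0.06 for HSP30. With processed signals they were -0.14, -0.23, -0.25 and 0.26 for the same genes in that order.

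Some of the genes that work with these chaperones were also low on array 3. SSA1, a cytosolic HSP70 that feeds clients to HSP104, was lower on array 3 than on array 2 by 0.56, the 12th lowest difference of all genes. SIS1, a J-protein partner of HSP70, was lower by 0.51 (16th lowest), and MDJ1, the J-protein of the mitochondrial matrix, by 0.37 (37th lowest). Among the HSP90 cochaperones CPR6 was lower by 0.34 and CDC37 by 0.29, but CPR6 was as low on array 5 as on array 3 (2.73). Array 2 was itself above the mean of the other arrays, by 0.33 for SSA1, 0.25 for SIS1 and 0.23 for CPR6. The excess was 0.13 for MDJ1 and 0.13 for CDC37. Array 3 deviated from the mean of its others by -0.37 for SSA1, -0.39 for SIS1, -0.33 for MDJ1, -0.19 for CPR6 and -0.22 for CDC37. In the opposite direction YRO2, a relative of HSP30, was higher on array 3 than on array 2 by 0.52, the 23rd highest difference. It deviated from the mean of the other arrays by 0.34 on array 3 and by -0.31 on array 2. Array 3 held the lowest of the 5 values for 5 of the 10 heat shock proteins, against 21.1% of all genes. The count was 5 of 12 cochaperones, 3 of 6 cytosolic partners and 3 of 7 mitochondrial partners. It was 1 of 6 for the stress transcription factors and kinases and 1 of 6 for the general stress genes. For the kin of single heat shock proteins it was 1 of 7. SSA2, the constitutive cytosolic HSP70, and SSC1, the mitochondrial HSP70, deviated on array 3 by 0.08 and -0.04 from the other arrays. The median deviation on array 3 was -0.20 for the cytosolic partners, -0.04 for the mitochondrial partners and 0.01 for the cochaperones. It was 0.03 for the stress transcription factors and kinases, 0.04 for the kin and -0.02 for the general stress genes.

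**Figure D4:**
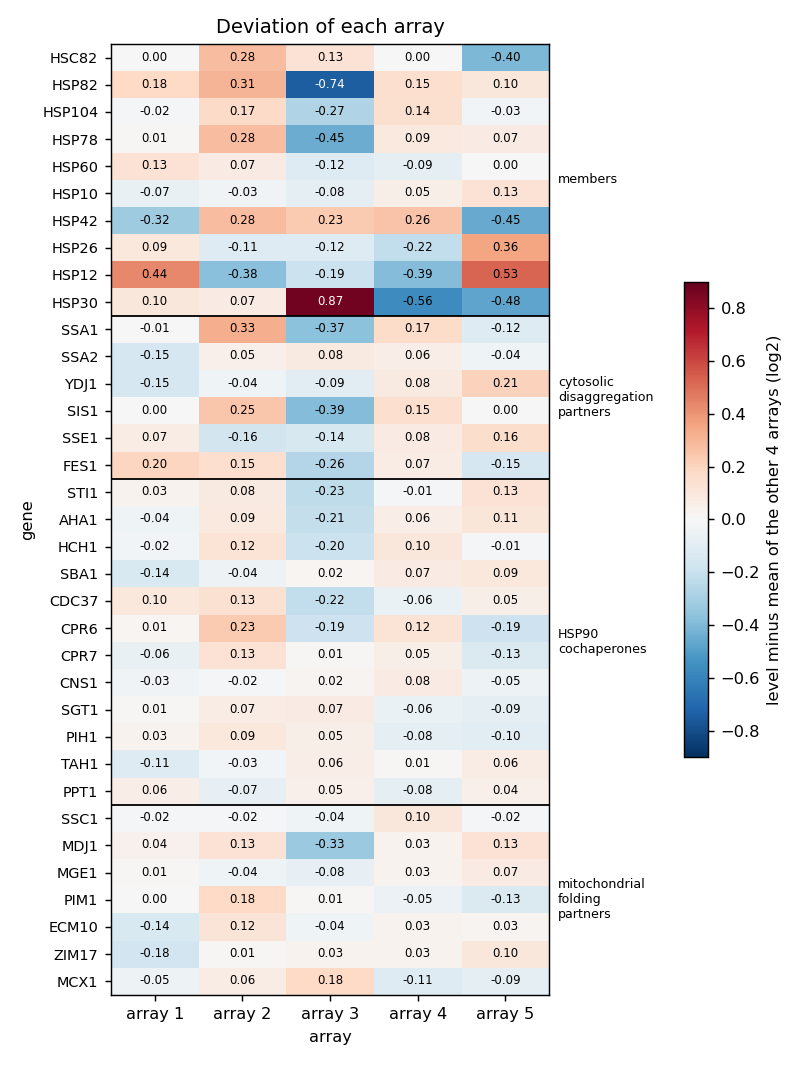
Level on each array minus the mean of the other 4 arrays (log2, colour and printed number) for the 10 heat shock proteins and for listed partners in the cytosol, of HSP90 and in mitochondria. On array 3 HSP82 (-0.74), HSP78 (-0.45), SIS1 (-0.39) and SSA1 (-0.37) are low and HSP30 (0.87) is high, while HSP12 is high on arrays 1 and 5.

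Between scan sessions (arrays 4 and 5 against arrays 1 to 3), 0 of the 10 genes passed an adjusted p of 0.05 in limma, where 2.64% of all genes passed (1.47% higher and 1.17% lower in the second session), and 2 of the 10 had an unadjusted p under 0.05, where 20.2% of all genes did. HSP30 averaged -2.52 in the second session and -1.82 in the first, a difference of -0.69 ± 0.18 (SE, limma adjusted p = 0.092), and its sessions did not overlap. HSC82 averaged 4.14 in the second session and 4.41 in the first (-0.27 ± 0.10, SE, limma adjusted p = 0.208). HSP10 averaged 3.41 in the second session and 3.29 in the first, also without overlap (0.12 ± 0.05, SE, limma adjusted p = 0.257). Non-overlap was found for 2 of 10 genes and for 38.9% of all genes, HSP10 being higher in the second session, as 18.9% of all genes were, and HSP30 lower, as 20% were. Without array 3, on which HSP30 was highest, the difference of HSP30 was -0.48 and passed (limma adjusted p = 0.0342). Over all genes 60 of 6256 passed in that setting. With the slide as a random block HSC82, HSP10 and HSP30 passed (limma adjusted p = 0.00742, 0.0157 and 0.00209), as did 2242 of the 6256 genes. Session and slide cannot be told apart for arrays 4 and 5, and 0 of 44 listed partner and stress genes passed.

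Of 12 HSP90 cochaperones, 5 had a higher mean level than HSP82 (HCH1, CPR6, CDC37, SBA1 and STI1, from 2.43 to 2.99) and none a higher one than HSC82, which ranks above 97.1% of all genes. Across the arrays 9 were above the median gene on all arrays and 3 below it, with a median level of 1.76. Of all genes 47.2% were above it and 47.5% below it on all 5 arrays. HCH1, an activator of the HSP90 ATPase, was highest at 2.99 ± 0.10 (SD, n = 5), and PIH1, of the complex that links HSP90 to assembly of snoRNP particles, lowest at -0.78 ± 0.07. The cytosolic partners of disaggregation were all above the median gene (6 of 6, median 2.30), from FES1, an HSP70 nucleotide exchange factor, at 2.22 ± 0.16, to SSA2 at 4.10 ± 0.08. HSP104 itself, at 0.75, lay below all 6 of them.

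Among the mitochondrial partners 6 of 7 were above the median gene on all arrays (median 0.81), against 47.2% of all genes. SSC1 was highest at 3.67 ± 0.05, against 3.35 for HSP60. MCX1, a ClpX-type ATPase, was lowest at -0.88 ± 0.10, against -0.75 ± 0.22 for HSP78. The transcription factors and kinases of the stress response split 3 above and 3 below (median 0.22), from RIM15, a kinase of quiescence entry, at 1.83 ± 0.05, to HSF1, the heat shock transcription factor, at -0.60 ± 0.08.

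Of the general stress genes 5 of 6 were below the median gene on all arrays (median -1.56), against 47.5% of all genes. DDR2, a multistress gene of unknown biochemical role, was lowest at -3.77 ± 0.29, and GRE3, an aldose reductase, highest at 1.20 ± 0.09. SSA4, the stress-induced cytosolic HSP70, was at -1.91 ± 0.07, against 4.10 for the constitutive SSA2. Genes that share a name or a family with single heat shock proteins were below the median gene in 6 of 7 cases (median -2.39). HSP150, a secreted cell wall protein, was the exception at 3.66 ± 0.06. HSP33, of the HSP31 family of DJ-1-type proteins, had the lowest level of all genes at -6.01, and HSP32 and SNO4 stood at -4.78 and -5.03. These 3 are near-identical copies whose signals may be shared, and their RNA was well above background on only 2 or 3 arrays.

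**Figure D5:**
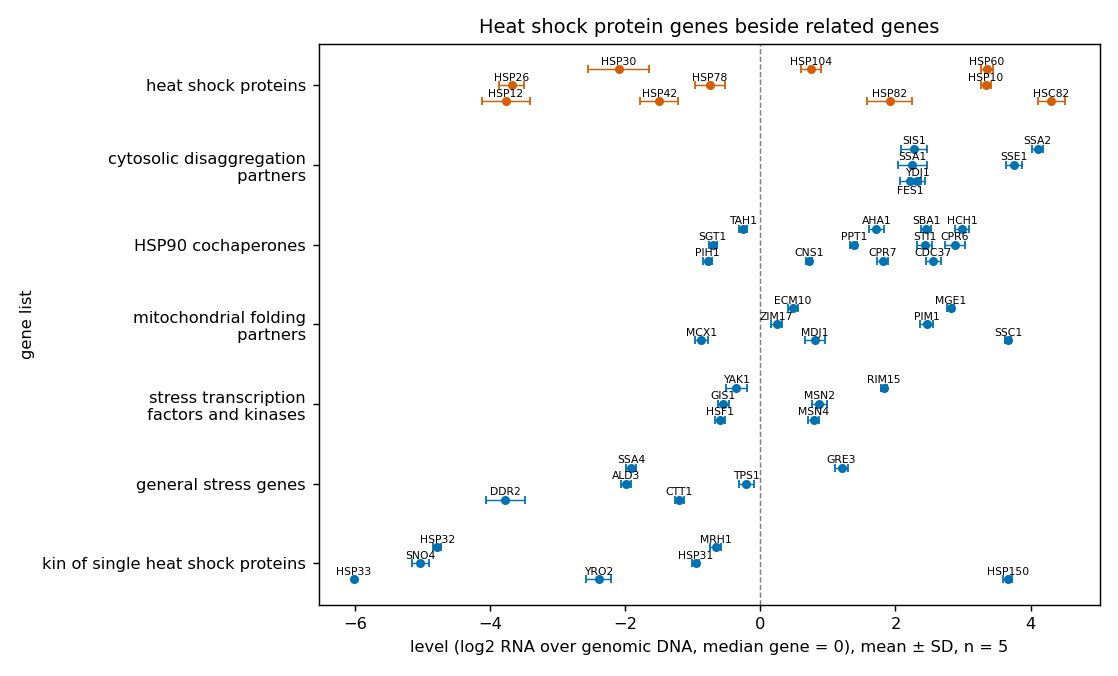
Mean level and SD over 5 arrays (log2 RNA over genomic DNA, median gene at 0) for the 10 heat shock proteins (orange) and 6 lists of related genes (blue). Cytosolic disaggregation partners lie wholly above the median gene, and general stress genes and the kin of single heat shock proteins lie below it with the exceptions of GRE3 and HSP150.

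For each of the 10 genes, the gene with the most similar levels over the 5 arrays was found among 5669 genes whose RNA and genomic DNA were clearly detected on all 5, by the root mean square difference in log2 level. The closest matches were ERG3 for HSP10 (0.039) and ARG4 for HSP60 (0.042), genes of sterol and arginine synthesis. FMP32 matched HSP104 (0.073), THS1, threonyl-tRNA synthetase, matched HSC82 (0.11), FRT1 matched HSP78 (0.12), and TMA10 matched HSP42 (0.14). The likeness was poorest for the genes that varied most or were dimmest: YBL012C for HSP26 (0.16), SUR1 for HSP82 (0.18), YMR084W for HSP30 (0.20) and GRE1, a stress-induced hydrophilin, for HSP12 (0.29). HSP26 and HSP12 did not meet the detection filter themselves, with RNA well above background on 3 arrays. Dim genes like them could therefore not be chosen as matches. DDR2, well above background for RNA on 4 arrays, was barred in this way.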

How the data were processed

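Total RNA (Cy3) was measured against genomic DNA (Cy5) on 5 two-colour arrays without dye swap. Intensity values for every spot were deposited by the authors, as read with Agilent Feature Extraction 10.1.1.1 per the file headers, a different release from the one in the study's methods. They also hold flags of 0 or 1, deposited per spot and used here to mark background and outliers. The authors' table of log2 ratios, also deposited, was used as an alternative only.

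Local background medians were subtracted from spot medians. Control spots were left out, as were outliers flagged in RNA or genomic DNA, log2 of Cy3 over Cy5 was averaged over the 7 spots of a gene, and quantile normalization between arrays used limma 3.58.1 (R 4.3.3), with the median gene then set to 0. Rules written for several probes of a gene were applied to its spots, since each gene had 1 probe. A gene counted as well above background when at least 50% of its spots were so marked. Pairs were compared by exact sign-flip permutation over 32 sign patterns, and scan sessions by lmFit and eBayes with Benjamini-Hochberg adjustment over all genes. The session fit was checked on simulated data with known changes. Alternatives covered background, spot filters, normalization, the RNA channel alone, the authors' table and left-out arrays. Where arrays were left out, the normalization was repeated on the arrays kept.

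All 10 genes are named, and of each related list the highest and lowest gene, as well as the nearest gene of each. Other genes named were chosen after their values were seen. The genes and lists were chosen with earlier results of these data known. Symbols follow the array or, through systematic names (5756 matched), the RefSeq table of assembly R64, which served only for names. The number of arrays limits the precision.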

Additional observations from a re-analysis of the deposited data

Results flagged for a closer look

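HSP82 was the only value that stood apart by Dixon's criterion for the highest or lowest of 5 arrays, among 16 sets of 5 values examined (10 levels and 6 pair differences). Its level on array 3 was 1.32, against 1.99 to 2.16 on the other 4 arrays, and the gap took up 0.80 of the whole range, where 0.71 is the critical value. Chance alone marks about 1 set in 20. Leaving array 3 out and normalizing again moved the mean of HSP82 to 2.05, against 1.91 with all arrays.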

How the results depend on the processing

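Of 170 values of the 10 levels under 17 alternatives, 130 stayed within 1 SD of the values given, 37 moved further and 3 changed sign. HSC82 went below the median gene with Agilent's processed signals (-0.063) and under loess (-0.34), as HSP60 did under loess (-0.069). Loess removes the trend of the ratio with brightness, which here includes expression, and left 1 gene, in place of 5, above the median gene on every array. HSC82 minus HSP82 was -0.48 with processed signals and -0.40 under loess, HSP42 minus HSP26 was -0.43 and HSP12 minus HSP30 was 0.52 under loess. HSP60 minus HSP10 was below 0 with normexp (-0.47), processed signals (-0.89), median centring (-0.0030), loess (-0.73) and the second scan session alone (-0.11). With each array left out in turn it ran from -0.025 to 0.045, HSC82 minus HSP82 from 2.22 to 2.48, HSP104 minus HSP78 from 1.45 to 1.52, HSP42 minus HSP26 from 2.06 to 2.40, HSP12 minus HSP30 from -1.92 to -1.42 and HSP60 minus HSP78 from 4.01 to 4.14. The cause of these changes was not tested.

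The number of the 10 genes that differed between sessions was 1 with only spots well above background (HSP30, -1.28), ran from 0 to 1 with each array left out (HSP30 without array 3), and was 3 with the slide as a random block (HSC82 -0.30, HSP10 0.12, HSP30 -0.75). Over all genes that count was 165 and ran from 0 with the RNA signal alone to 2242 with the slide block and 2270 with spots well above background. It was 60 without array 3. No paired comparison between conditions was possible because all arrays form 1 group. Signal over background limits HSP26 and HSP12, which were not well above background on arrays 4 and 5.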

Other observations

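A few genes outside the lists that were lower on array 3 than on array 2 are named here after their values were seen, as single values and not as a theme. Their levels on arrays 1, 4 and 5 are not given here. BTN2 and CUR1, which sort misfolded proteins within the cell, were lower on array 3 than on array 2 by 0.66 and 0.59 (log2). RPN4, the transcription factor of proteasome genes, was lower by 0.54. Other genes among the lowest differences included CIT2 (-0.76), VAR1 (-0.64), KAR1 (-0.57) and LSM4 (-0.50). The lowest difference of all was that of ICY2 (-1.13), between -1.71 on array 3 and -0.58 on array 2. The 50 lowest differences of 6256 held 3 of the 10 heat shock proteins and 3 of the 44 related genes. The labels give both arrays the same strain, temperature and growth phase.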
